A study of Mus musculus with 9 samples.

Results

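MicroRNA genes were read here in RNA-seq of ulcer skin, as all genes of the class miRNA in the deposited table of FPKM (fragments per kilobase of gene, scaled to library size) that reached 0.5 FPKM in 3 or more of 9 libraries. Of 444 genes of that class, 99 passed, which is 22.3%, against 51.9% of all 30560 features of the table. The same threshold chose the 15847 features of all classes that were tested. The libraries came from rats in 3 groups of 3, all sampled on day 21 from ulcer skin. PRP ulcers were diabetic ulcers given 0.5 ml of platelet-rich plasma (PRP), blood plasma in which platelets are concentrated, at the wound on days 1, 7, 14 and 21. Diabetic saline ulcers were diabetic ulcers given the same volume of saline on those days. Non-diabetic ulcers, which the design calls sham, were given saline in the same way in animals without diabetes. All 3 groups thus carried a wound, and shared the volume and days of injection but not what was injected. The sources used here give no strain, age, sex or method of inducing diabetes. The labels name the organism as mouse, while the design text names rats and all gene identifiers are rat ones, so coordinates are those of the table, for a rat build that no source used here names.

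A microRNA is cut from a hairpin within a longer primary transcript. Drosha and Dgcr8 free the hairpin in the nucleus, exportin 5 carries it out, and Dicer trims it to a short duplex, of which one strand is loaded onto an Argonaute protein. Bases 2 to 8 of that strand, the seed, do most of the pairing with target mRNAs, which are then repressed. Many microRNA genes lie in introns of a host gene or share a primary transcript with neighbouring microRNA genes. In skin, microRNAs are known for roles in keratinocyte renewal, fibroblast activation, vessel growth and the inflammatory phase of healing. Mature microRNAs are too short for a library of this kind, so the values describe reads over the hairpin gene, from primary transcripts or from host gene introns, and not the amount of mature microRNA.

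Sequences are shown for the genes on which the comparisons turn, grouped by the seeds they share. They are mouse mature sequences from RefSeq, build GRCm38.p6, matched by microRNA name, and the rat sequences are not analysed here. A name matched for 64 of the 99 genes, 57 directly and 7 after the copy number was dropped. Capitals mark the seed.
The cluster on chromosome X was low in diabetic saline ulcers, and its 5 genes carry different seeds:
mmu-miR-503-5p (Mir503-2): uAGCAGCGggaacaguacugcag
mmu-miR-322-5p (Mir322-2): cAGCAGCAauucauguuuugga
mmu-miR-351-5p (Mir351-2): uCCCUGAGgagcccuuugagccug
mmu-miR-450a-5p (rno-mir-450a): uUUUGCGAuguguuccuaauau
mmu-miR-450b-5p (Mir450b-2): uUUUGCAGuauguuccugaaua
Mir15a and Mir195 lie elsewhere and share the seed of Mir322-2, which differs from that of Mir503-2 in its last base:
mmu-miR-15a-5p (Mir15a): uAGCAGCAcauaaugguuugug
mmu-miR-195a-5p (Mir195): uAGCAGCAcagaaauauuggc
Mir433 and Mir541 belong to the imprinted chromosome 6 stretch:
mmu-miR-433-3p (Mir433): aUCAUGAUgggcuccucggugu
mmu-miR-541-5p (Mir541): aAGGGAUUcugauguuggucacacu
The chromosome 19 cluster was highest in 2 of the 3 non-diabetic libraries, and its Mir27a shares a seed with Mir27b of chromosome 17:
mmu-miR-23a-3p (Mir23a): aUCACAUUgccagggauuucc
mmu-miR-27a-3p (Mir27a): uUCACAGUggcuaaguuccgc
mmu-miR-24-3p (Mir24-2): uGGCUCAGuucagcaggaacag
mmu-miR-27b-3p (Mir27b): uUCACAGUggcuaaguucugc
Single genes named for a skin cell type or for their difference between groups were the following:
mmu-miR-21a-5p (Mir21): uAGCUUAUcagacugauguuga
mmu-miR-142a-3p (Mir142): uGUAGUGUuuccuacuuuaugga
mmu-miR-214-3p (Mir214): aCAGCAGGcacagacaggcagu
mmu-miR-511-3p (Mir511): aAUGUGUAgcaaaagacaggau
mmu-miR-3064-5p (Mir3064): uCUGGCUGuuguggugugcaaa
mmu-miR-205-5p (Mir205): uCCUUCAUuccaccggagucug
The 5 let-7 sequences share 1 seed and differ in the bases after it:
mmu-let-7c-5p (Mirlet7c1): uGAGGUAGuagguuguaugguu
mmu-let-7i-5p (Mirlet7i): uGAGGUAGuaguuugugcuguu
mmu-let-7d-5p (Mirlet7d): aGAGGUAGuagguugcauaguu
mmu-let-7b-5p (Mirlet7b): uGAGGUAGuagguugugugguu
mmu-let-7a-5p (Mirlet7a1): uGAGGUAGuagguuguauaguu

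The genes were short, from 59 to 141 bases with a median of 92, and mostly faint. Their median level was 0.942 FPKM over the 9 libraries, against 6.87 FPKM for all tested features and 2.01 FPKM for the 388 tested snoRNA genes. Of the 99 genes, 27 reached 0.5 FPKM in all 9 libraries and 19 in exactly 3, while 31 further microRNA genes reached it in exactly 2. At the edge of the threshold, the third-highest value was 0.503 FPKM for Mir628 and Mir365b, just inside, and 0.494 FPKM for Mir379 and 0.483 FPKM for Mir3572, just outside. No gene passed through the 3 libraries of 1 group alone, but some came close to it. Mir541 passed through the 3 non-diabetic libraries and diabetic saline replicate 1. Mir450b-2 passed through the 3 PRP libraries and non-diabetic replicate 1. Mir6324 and Scarna3 passed through the 3 diabetic saline libraries and PRP replicates 1 and 2, and through no non-diabetic library. The threshold was thus not independent of the groups in which such genes were high. Of the 345 that did not pass, 88 were listed at 0 in every library. Among the 99 are 3 with no name, and Snora58 and Scarna3, which carry names of small nucleolar and Cajal body RNAs although the table classes them as microRNA genes.

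Depth sets the limit of every value below. It was estimated from 20 genes of the count table. Their ratio of count to FPKM and length lay within 1% of the upper quartile in every library. By them, 1 FPKM over 1 kb was worth 84.3 to 112 reads per library. So 0.5 FPKM over a gene of median length is 3.88 to 5.16 read equivalents, which are estimates and not counted reads. Of the 891 values of the 99 genes, 56 were 0 and 33.9% lay under 5 such read equivalents, which summed to 1560 to 2329 per library. The sources used here give no total of reads per library. Non-diabetic replicates 1 and 3 stood apart: over all tested features their rank correlation with each other was 0.946, against 0.916 and 0.869 with non-diabetic replicate 2, which correlated at 0.943 with diabetic saline replicate 1 and 0.951 with PRP replicate 1. Markers of skin were present: the 6 keratinocyte markers matched by name summed to 3102 to 6248 FPKM in PRP ulcers, 2613 to 4296 FPKM in diabetic saline ulcers and 82.7 to 2146 FPKM in non-diabetic ulcers, and the 6 fibroblast markers to 10050 to 23310, 2981 to 16200 and 16800 to 21850 FPKM. The 8 skeletal muscle markers matched by name summed to 3623 to 5221, 3508 to 13610 and 204 to 3791 FPKM in the same groups. In bulk tissue, fewer cells of a type and less RNA per cell cannot be told apart.

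The most abundant gene was Mir3064 (chr10:91725800-91725866, minus strand), which lies inside Ddx5, an RNA helicase that is itself a partner of Drosha. Mir3064 had 25.9, 28.1 and 23.7 FPKM in PRP ulcers, 36.4, 45.5 and 26.7 FPKM in diabetic saline ulcers and 21.2, 21.2 and 14.7 FPKM in non-diabetic ulcers. Mir568 followed at a mean of 12.8 FPKM, with no gene around it. The others of the 10 highest were an unnamed gene inside Hdac5 at 7.67 FPKM, Mir214 at 7.31, Mir27b at 6.96, Mir99a at 6.39, Mir7-1 inside Hnrnpk at 6.16, Mirlet7c1 at 5.75, an unnamed gene inside Eif3a at 5.68 and Mir5132 at 4.86 FPKM. FPKM is already per length, but a gene of about 90 bases is counted with few fragments, so the order of these levels is approximate. How scaling by length acts on genes this short was not tested. The gene inside Hdac5 (ENSRNOG00000067605) had 8.13, 8.13 and 7.13 FPKM in PRP ulcers, 8.82, 6.12 and 7.62 FPKM in diabetic saline ulcers and 11.2, 0.0624 and 11.8 FPKM in non-diabetic ulcers, so that non-diabetic replicate 2 was near 0 and the other 8 libraries were not. Hdac5 itself ranged from 10.5 to 14.1 FPKM over the 9 libraries.

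In diabetic saline ulcers, 7 of the 99 microRNA genes differed from non-diabetic ulcers at an adjusted p under 0.05, which is what "called" means below (limma on log2(FPKM + 1), two-sided, Benjamini-Hochberg over all 15847 tested features). Mir3064 and Mir6324 were higher, and Mir351-2, Mir503-2, rno-mir-450a, Mir433 and Mir541 were lower. The 5 lower genes lie in 2 places, 3 in the chromosome X cluster and 2 in the chromosome 6 stretch. Of all features tested, 8.54% were called, 1.65% higher and 6.9% lower, so the share of microRNA genes called, 7.07%, is near that of the table. At an unadjusted p under 0.05, 6 were higher and 18 lower, 24.2% in all, against 34.4% of all features (15.5% higher and 18.8% lower). The groups did not overlap for 7 higher and 12 lower genes, 19.2% in all, against 33.9% of all features (14.5% higher and 19.4% lower). The median log2 difference, diabetic saline minus non-diabetic, was -0.04 for the 99 genes and 0.05 for all features. These calls rest on the whole set of libraries: the count of microRNA genes called was 0 when any one of PRP replicates 1 and 2, diabetic saline replicates 2 and 3 or non-diabetic replicates 1 and 3 was left out, and 18 (4 higher and 14 lower) without non-diabetic replicate 2. It was 2 without PRP replicate 3.

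In PRP ulcers against diabetic saline ulcers no feature of the table was called by limma (0%), and no microRNA gene. At an unadjusted p under 0.05, 13 microRNA genes were higher and 2 lower, 15.2% in all, against 6.56% of all features (4.02% higher and 2.54% lower). The groups did not overlap for 14 higher and 3 lower genes, 17.2% in all, against 11.4% of all features (5.87% higher and 5.48% lower). Their median log2 difference, PRP minus diabetic saline, was 0.07, and that of all features -0.06. The smallest adjusted p of a microRNA gene in this comparison was 0.198. Among the 13, Mir503-2, Mir351-2, rno-mir-450a and Mir450b-2 lie in 1 cluster on chromosome X, and Mir433 and Mir431 are neighbours on chromosome 6. Neighbours may share a primary transcript, so the 13 are not independent. Against non-diabetic ulcers, PRP ulcers had 0 microRNA genes called and 1 feature of the table (0.00631%), with 7 microRNA genes higher and 9 lower at an unadjusted p under 0.05, 16.2% in all, against 20.4% of all features (7.79% higher and 12.6% lower). The groups did not overlap for 10 higher and 6 lower genes, 16.2% in all, against 29.4% of all features (9.21% higher and 20.2% lower). The F test over the 3 groups called 0 of the 99 genes, with a smallest adjusted p of 0.0802, and 1 of all 15847 features (0.00631%). All 3 comparisons share groups, so a library that stands apart enters more than one of them.

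**Figure D1:**
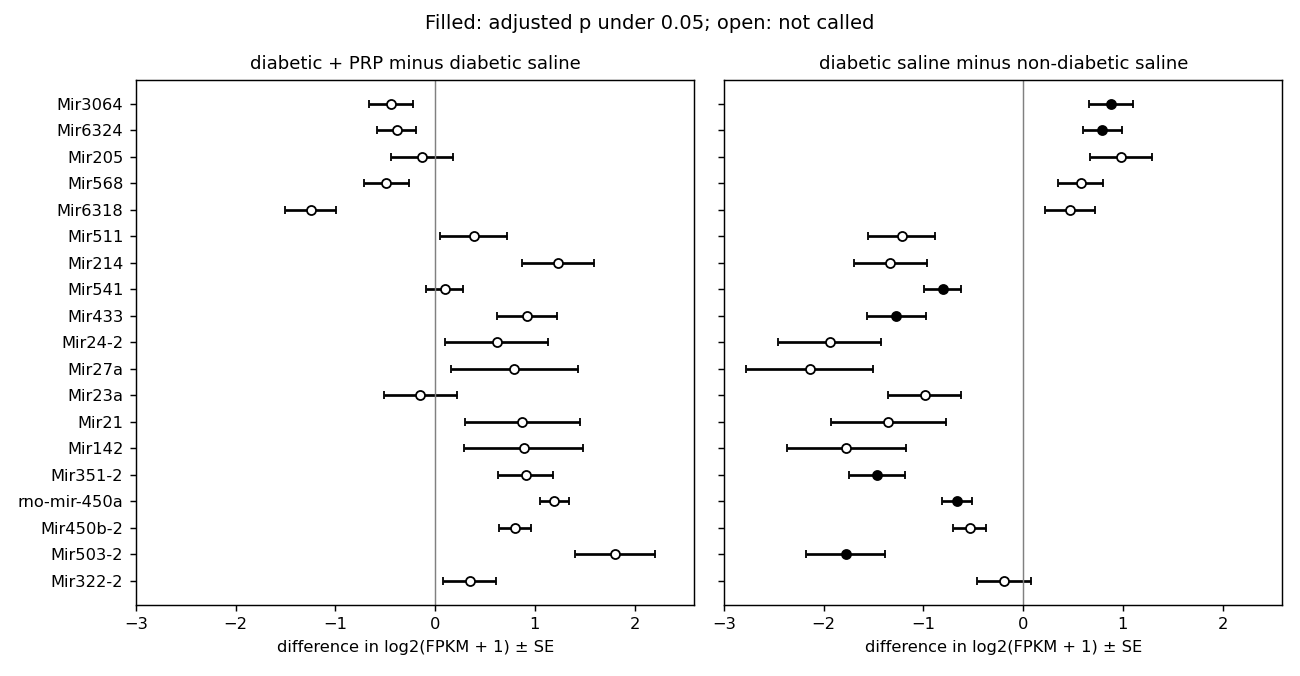
Differences in log2(FPKM + 1) with standard errors for 19 microRNA genes, PRP minus diabetic saline ulcers on the left and diabetic saline minus non-diabetic ulcers on the right (3 libraries a group). Filled points are called: 7 on the right (Mir3064, Mir6324, Mir541, Mir433, Mir351-2, rno-mir-450a and Mir503-2) and 0 on the left.

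The X cluster holds 5 of the 99 genes within 5309 bases of the minus strand (chrX:132801380-132806688), with no gene around them. In mouse and human these hairpins are cut from 1 transcript. miR-503 and miR-322, which is miR-424 in human, are known as brakes on cell cycle genes such as those for cyclins and Cdc25a, and are induced during muscle differentiation. miR-351 has the seed of the miR-125 family. All 5 had their lowest group mean in diabetic saline ulcers, and the summed level of the cluster was 4.98, 8.2 and 8.51 FPKM in PRP ulcers, 0.644, 0.439 and 1.01 FPKM in diabetic saline ulcers and 12.5, 5.16 and 4.42 FPKM in non-diabetic ulcers. The 3 diabetic saline libraries all lay below the other 6.

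Mir503-2 (chrX:132806303-132806373, minus strand) had 1.72, 3.85 and 3.29 FPKM in PRP ulcers, 0.18, 0 and 0.131 FPKM in diabetic saline ulcers and 6.24, 2.31 and 1.26 FPKM in non-diabetic ulcers. Diabetic saline libraries were at or near 0, and the other groups overlapped each other. The log2 difference, diabetic saline minus non-diabetic, was -1.78 (SE 0.40), adjusted p = 0.0395, and that of PRP minus diabetic saline was 1.80 (SE 0.40) with an unadjusted p of 0.00166 and an adjusted p of 0.714. In read equivalents, this is 12.9 to 30.2 in PRP ulcers, 0 to 1.3 in diabetic saline ulcers and 7.5 to 40.6 in non-diabetic ulcers. Mir351-2 had 0.769, 1.36 and 1.49 FPKM in PRP ulcers, 0, 0 and 0.573 FPKM in diabetic saline ulcers and 3.59, 1.56 and 1.83 FPKM in non-diabetic ulcers. It was listed at 0 in diabetic saline replicates 1 and 2, and each of the 3 groups was free of overlap with the next. Its difference was -1.47 (SE 0.28), adjusted p = 0.0322 for diabetic saline minus non-diabetic and 0.91 (SE 0.28), adjusted p = 0.714 for PRP minus diabetic saline.

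The gene rno-mir-450a had 1.82, 1.77 and 1.6 FPKM in PRP ulcers, 0.315, 0.14 and 0.131 FPKM in diabetic saline ulcers and 1.2, 0.754 and 0.751 FPKM in non-diabetic ulcers. PRP libraries were all above non-diabetic ones, and those were all above diabetic saline ones. It averaged 1.73 ± 0.115, 0.195 ± 0.104 and 0.9 ± 0.256 FPKM in PRP, diabetic saline and non-diabetic ulcers (SD, n = 3 each). Its log2 difference was 1.19 (SE 0.15), adjusted p = 0.198 for PRP minus diabetic saline, -0.66 (SE 0.15), adjusted p = 0.0387 for diabetic saline minus non-diabetic and 0.53 (SE 0.15), adjusted p = 0.154 for PRP minus non-diabetic. The first of these is the smallest adjusted p that any microRNA gene reached between PRP and diabetic saline ulcers, and it does not pass the threshold. Mir450b-2, next to it, had 0.628, 0.533 and 1.1 FPKM in PRP ulcers, 0, 0 and 0 FPKM in diabetic saline ulcers and 0.657, 0.402 and 0.317 FPKM in non-diabetic ulcers. It was listed at 0 in all 3 diabetic saline libraries and above 0 in the other 6, at an adjusted p of 0.0653 for diabetic saline against non-diabetic and 0.714 for PRP against diabetic saline.

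Mir322-2 had 0.0503, 0.693 and 1.03 FPKM in PRP ulcers, 0.15, 0.299 and 0.176 FPKM in diabetic saline ulcers and 0.834, 0.132 and 0.262 FPKM in non-diabetic ulcers, and its groups overlapped, at -0.19 (SE 0.27), adjusted p = 0.628 for diabetic saline minus non-diabetic. Mir542-2, which lies between these genes and did not pass the threshold, had 0.167, 0.394 and 0.262 FPKM in PRP ulcers, 0, 0.241 and 0.131 FPKM in diabetic saline ulcers and 0.0368, 0 and 0 FPKM in non-diabetic ulcers. Its levels did not follow those of the cluster. The name endings -2 mark copies of a gene, and fragments from near-identical copies could have been split in the authors' counting, so the levels of this cluster are uncertain to that extent. Mir503-2, Mir351-2 and rno-mir-450a lost their calls without PRP replicate 1 or 2, diabetic saline replicate 2 or 3, or non-diabetic replicate 1 or 3, and Mir503-2 and rno-mir-450a also without PRP replicate 3. The direction stayed the same in each of those fits. Fibroblast markers were lowest in diabetic saline replicate 2, at 2981 FPKM, and skeletal muscle markers were highest in diabetic saline replicate 1, at 13610 FPKM. The cluster was low in all 3 diabetic saline libraries. So were the B cell markers, at 2.41 to 8.85 FPKM, against 13.4 to 70.9 in PRP and 35.0 to 104 FPKM in non-diabetic ulcers. T and NK cell markers were also lowest in those 3 libraries, at most 3.73 FPKM against at least 3.78 FPKM elsewhere. Macrophage markers overlapped between PRP and diabetic saline ulcers. The part of any of these cell types in the result was not tested.

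**Figure D2:**
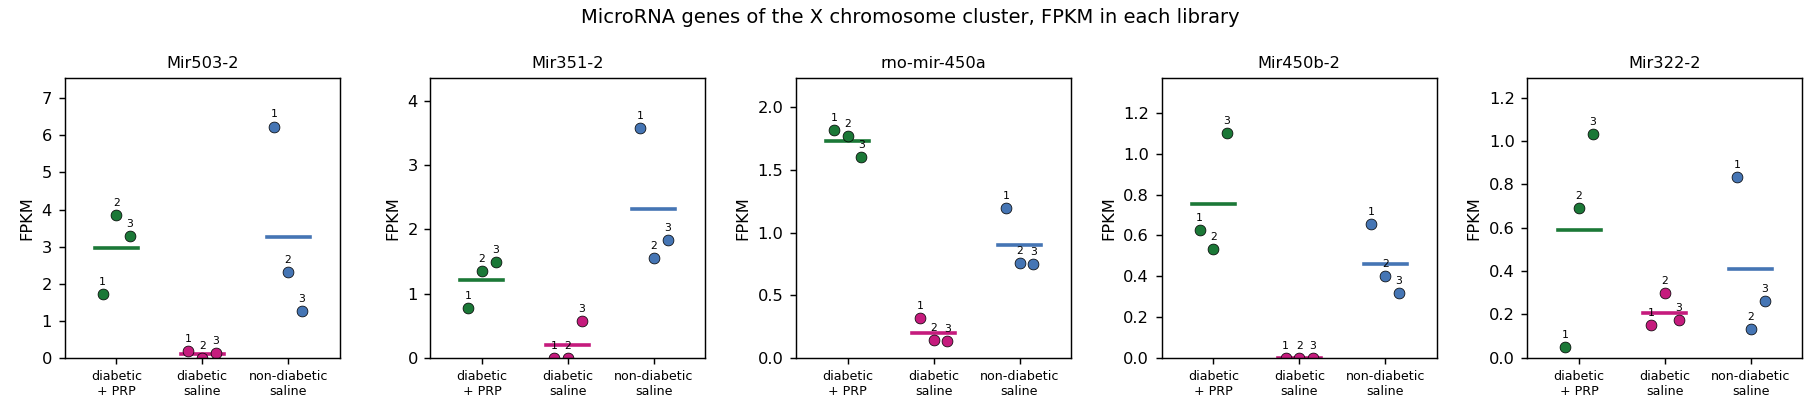
FPKM of the 5 genes of the chromosome X cluster in each library, with replicate numbers and group means as bars, for diabetic ulcers given PRP, diabetic ulcers given saline and non-diabetic ulcers given saline. For every gene but Mir322-2 all 3 diabetic saline points lie below the other 6, and Mir450b-2 is listed at 0 in each of them.

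Of the genes that share the Mir322-2 seed, Mir15a, a repressor of Bcl2 and of cell cycle genes, had 2.93, 4.72 and 6.75 FPKM in PRP ulcers, 0.907, 2.54 and 2.98 FPKM in diabetic saline ulcers and 4.1, 2.27 and 3.86 FPKM in non-diabetic ulcers. Diabetic saline replicate 3 lay just above PRP replicate 1, and the difference was 0.90 (SE 0.35), adjusted p = 0.714 for PRP minus diabetic saline. Mir195 ranged from 0 to 2.7 FPKM with overlap of all groups. Mir15a and Mir195, like Mir511, Mir339, Mir615, Mir770 and Mir1188 below, were named after their values were seen.

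The chromosome 6 stretch (chr6:128515835-128757105, 241 kb, plus strand) holds the rat counterpart of the imprinted Dlk1-Dio3 domain, in which mouse microRNA and snoRNA genes are read from the maternal chromosome as parts of long noncoding transcripts. Of 39 microRNA genes there, 13 passed the threshold, 26 did not, and 5 of those were listed at 0 throughout. The summed level of the 13 genes was 4.7, 4.56 and 11.1 FPKM in PRP ulcers, 5.0, 0.803 and 3.57 FPKM in diabetic saline ulcers and 11.2, 7.35 and 13.1 FPKM in non-diabetic ulcers. Diabetic saline replicate 2 was lowest, and diabetic saline replicate 1 lay within the PRP range. Of the snoRNA genes of the stretch, 81 were tested. Their sums were 266, 225 and 355 FPKM in PRP ulcers and 229, 35.3 and 136 FPKM in diabetic saline ulcers. In non-diabetic ulcers they were 720.0, 465 and 942 FPKM. Of the 81, 53 were called lower in diabetic saline than in non-diabetic ulcers (65.4%, against 6.9% of all features). Genes that may share transcripts are not independent, so the 81 are not separate observations. No feature was called in this comparison when PRP replicate 2, diabetic saline replicate 3 or non-diabetic replicate 1 or 3 was left out.

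Of the 13, Mir433 and Mir541 were called. Mir433 (chr6:128545112-128545217, plus strand) had 0.85, 0.771 and 2.75 FPKM in PRP ulcers, 0.447, 0.0831 and 0.157 FPKM in diabetic saline ulcers and 1.4, 2.31 and 2.22 FPKM in non-diabetic ulcers. All 3 diabetic saline libraries lay below all others, at -1.27 (SE 0.30), adjusted p = 0.0416 for diabetic saline minus non-diabetic and 0.92 (SE 0.30), adjusted p = 0.714 for PRP minus diabetic saline. Mir541 (chr6:128757016-128757105, plus strand) had 0.165, 0.328 and 0.221 FPKM in PRP ulcers, 0.547, 0 and 0 FPKM in diabetic saline ulcers and 1.03, 0.91 and 1.15 FPKM in non-diabetic ulcers. Both diabetic groups lay below the non-diabetic one, at -0.81 (SE 0.19), adjusted p = 0.0415 for diabetic saline and -0.71 (SE 0.19), adjusted p = 0.154 for PRP, each minus non-diabetic. For Mir541 the PRP values are 1.6 to 3.3 read equivalents, the diabetic saline values 0 to 4.8 and the non-diabetic values 8.5 to 8.8. The difference thus rests on a few read equivalents a library.

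Mir433, Mir431 and Mir127 lie opposite Rtl1, a retrotransposon-derived gene read from the paternal chromosome, whose mRNA mouse microRNAs of this set cut. Mir431 had 1.13, 0.827 and 2.2 FPKM in PRP ulcers, 0.952, 0 and 0.414 FPKM in diabetic saline ulcers and 0.583, 0.957 and 1.35 FPKM in non-diabetic ulcers, and Mir127 had 0.197, 0.216 and 0.616 FPKM in PRP ulcers, 0.925, 0 and 0.0647 FPKM in diabetic saline ulcers and 0.902, 0.167 and 1.47 FPKM in non-diabetic ulcers. Both overlapped between groups, at adjusted p = 0.284 and 0.327 for diabetic saline against non-diabetic. Rtl1 ranged from 0.00769 to 0.0766 FPKM and was not tested. At the start of the stretch, Mir770 had 0.167, 0.21 and 1.09 FPKM in PRP ulcers, 0.0751, 0 and 0.471 FPKM in diabetic saline ulcers and 1.26, 0.862 and 0.741 FPKM in non-diabetic ulcers, with every non-diabetic library above every diabetic saline one, at -0.74 (SE 0.26), adjusted p = 0.0903 for diabetic saline minus non-diabetic. The difference for rno-mir-679 was -0.67 (SE 0.26), adjusted p = 0.116, for Mir323 -0.53 (SE 0.22), adjusted p = 0.133 and for Mir376c -0.55 (SE 0.21), adjusted p = 0.105, and none of these was called. For rno-mir-679 non-diabetic replicates 1 and 3 were at 1.83 and 1.29 FPKM, while non-diabetic replicate 2, at 0.46 FPKM, lay below diabetic saline replicate 1. Mir493, Mir540, Mir1188, Mir666 and Mir544 had between 0 and 1.49 FPKM in every library, with overlap of the groups in each gene.

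**Figure D3:**
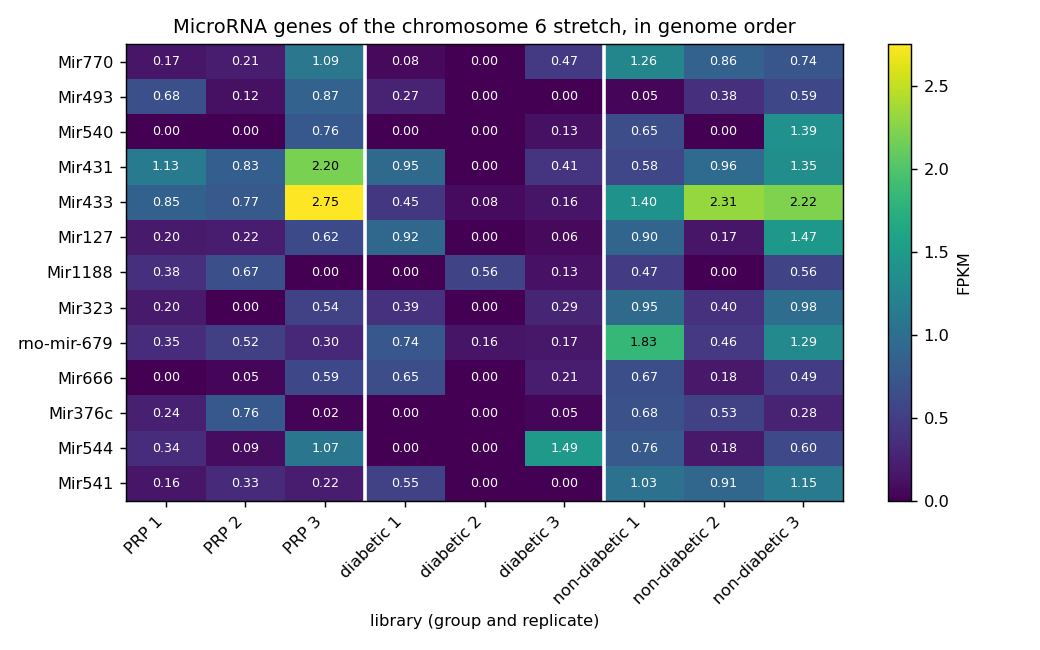
FPKM of the 13 microRNA genes of the chromosome 6 stretch that passed the threshold, in genome order from top to bottom, with the 9 libraries as columns (PRP, diabetic saline and non-diabetic from left to right, each cell with its value). Diabetic saline replicate 2 is at 0 for 10 of the 13 genes, and Mir433 in PRP replicate 3 is the highest cell at 2.75 FPKM.

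The chromosome 19 cluster (chr19:23954683-23955071, minus strand) holds Mir23a, Mir27a and Mir24-2 within 389 bases. It is known to act in blood cell choice, vessel growth and muscle wasting. Mir24-2 had 4.79, 2.43 and 1.24 FPKM in PRP ulcers, 0.908, 2.29 and 0.964 FPKM in diabetic saline ulcers and 12.1, 3.05 and 12.2 FPKM in non-diabetic ulcers, and Mir27a had 3.53, 1.59 and 1.07 FPKM in PRP ulcers, 0.136, 1.81 and 0.463 FPKM in diabetic saline ulcers and 12.8, 1.61 and 10.2 FPKM in non-diabetic ulcers. Mir23a had 0.163, 0.654 and 0.0444 FPKM in PRP ulcers, 0.619, 0.334 and 0.268 FPKM in diabetic saline ulcers and 3.27, 0.494 and 2.35 FPKM in non-diabetic ulcers. Non-diabetic replicates 1 and 3 were high for all 3 genes and non-diabetic replicate 2 was not. None was called, at -1.94 (SE 0.52), adjusted p = 0.0523 for Mir24-2, -2.14 (SE 0.64), adjusted p = 0.0646 for Mir27a and -0.99 (SE 0.37), adjusted p = 0.102 for Mir23a, diabetic saline minus non-diabetic. With non-diabetic replicate 2 as the only non-diabetic library, the difference of Mir24-2 was -0.81 and that of Mir27a -0.64. Fragments of Mir24-2 could also come from its copy elsewhere in the genome, which has the same mature sequence.

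Mir21 and Mir142 had the same split among non-diabetic libraries. Mir21, which is induced in many healing wounds, had 2.29, 4.71 and 2.87 FPKM in PRP ulcers, 0.456, 1.56 and 2.17 FPKM in diabetic saline ulcers and 9.77, 1.16 and 7.44 FPKM in non-diabetic ulcers. All 3 PRP libraries lay above all 3 diabetic saline ones, and diabetic saline minus non-diabetic was -1.35 (SE 0.58), adjusted p = 0.137. With non-diabetic replicate 2 as the only non-diabetic library, that difference was 0.08, the opposite sign. Mir142, which is specific to blood cells, had 1.83, 3.33 and 1.41 FPKM in PRP ulcers, 1.39, 0.491 and 0.307 FPKM in diabetic saline ulcers and 7.25, 0.984 and 10.4 FPKM in non-diabetic ulcers. Every PRP library lay above every diabetic saline one, the nearest pair by little, and diabetic saline minus non-diabetic was -1.77 (SE 0.60), adjusted p = 0.0835, against -0.25 with that lone non-diabetic library. Sums of the 4 T and NK cell markers were 3.78 to 7.06 FPKM in PRP ulcers, 0.491 to 3.73 FPKM in diabetic saline ulcers and, for non-diabetic replicates 1, 2 and 3, 12.2, 5.17 and 18.4 FPKM. The 3 B cell markers gave 13.4 to 70.9, 2.41 to 8.85 and, in those non-diabetic libraries, 104, 35.0 and 89.0 FPKM. The 5 macrophage markers were 583, 548 and 513 FPKM in the non-diabetic libraries and showed no such split, while the 4 neutrophil markers were 1462, 54.4 and 602 FPKM there, lowest in replicate 2. The part of these cells in the levels of Mir142 was not tested. Mir223, a microRNA of neutrophils and other myeloid cells, did not pass the threshold and lay at 0.00382 to 0.0563 FPKM in every library, while the 4 neutrophil markers summed to 258 to 6021 FPKM in PRP ulcers, 51.6 to 338 FPKM in diabetic saline ulcers and 54.4 to 1462 FPKM in non-diabetic ulcers.

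**Figure D4:**
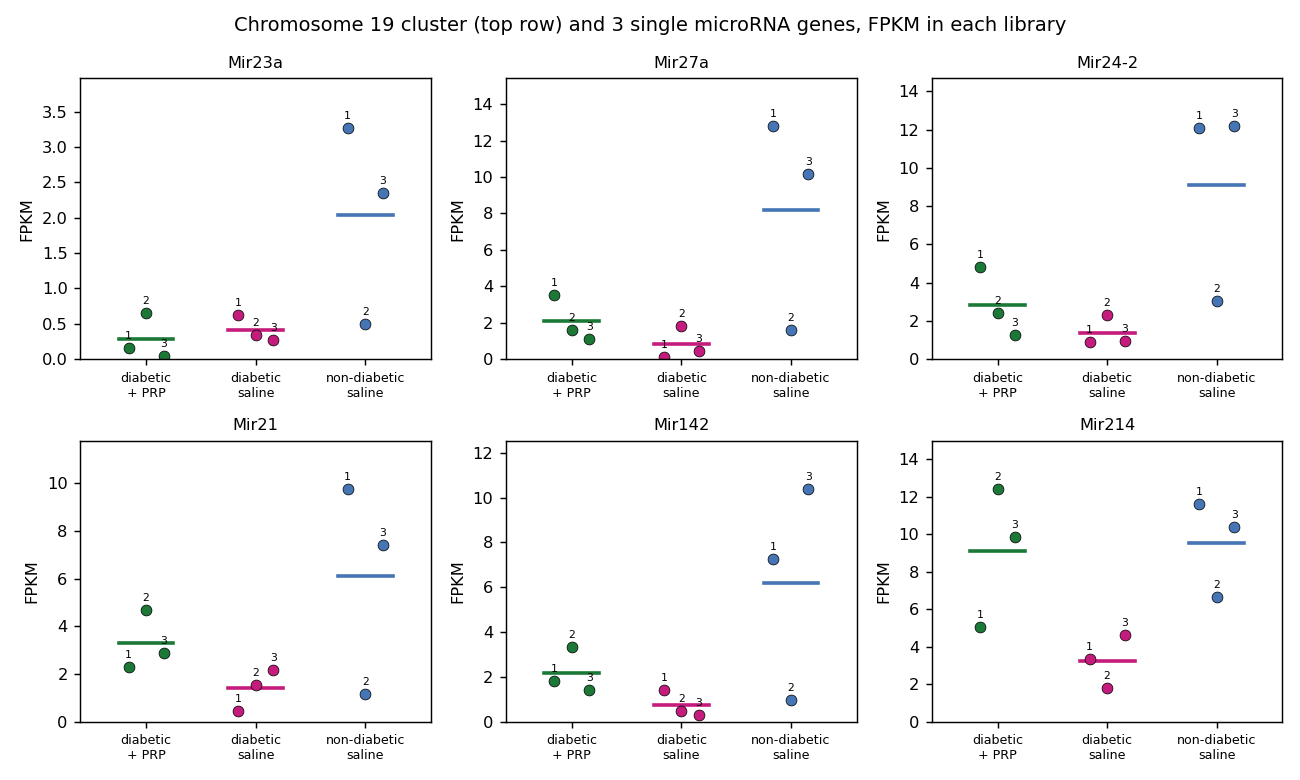
FPKM of Mir23a, Mir27a and Mir24-2 of the chromosome 19 cluster (top) and of Mir21, Mir142 and Mir214 (bottom) in each library, with replicate numbers and group means as bars. For all but Mir214, non-diabetic replicates 1 and 3 lie far above non-diabetic replicate 2, and for Mir214 the 3 diabetic saline points lie below the other 6.

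Of the 99 genes, 42 lie whole within another gene on the same strand, 40 of them within a protein-coding gene, 14 only opposite a gene, and 43 have no gene around them. Genes with a host on the same strand had a median log2 difference of 0.12, diabetic saline minus non-diabetic, with 2 called higher and 0 lower, and the other 57 had -0.29, with 0 higher and 5 lower. These are 4.76% and 8.77% called, against 8.54% of all features (1.65% higher and 6.9% lower), whose median was 0.05. For PRP minus diabetic saline the medians were -0.055 and 0.207, against -0.062 for all features. The hosts on the same strand had medians of -0.03 and -0.05 in these comparisons, with 0 called higher and 5 lower in the first, which is 11.9% against the 8.54% of all features. In 40 of 41 pairs of microRNA gene and protein-coding host the microRNA gene was the lower of the pair in FPKM, at a median of 7.17% of the host's level, and the exception was Mir615 in Hoxc5. The 2 differences had the same sign in 27 of 41 pairs for diabetic saline against non-diabetic and in 24 of 41 for PRP against diabetic saline. Fragments that cross a hairpin inside an intron cannot be told apart from host pre-mRNA, and the sources used here do not state the strand setting of the authors' counting, so the same holds for a gene on the opposite strand.

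Mir3064 was called higher in diabetic saline than in non-diabetic ulcers and Ddx5 was not called. Mir3064, whose values stand above, was higher in all 3 diabetic saline libraries than in all 3 non-diabetic ones, at 0.88 (SE 0.22), adjusted p = 0.0473. Ddx5 had 146, 195 and 154 FPKM in PRP ulcers, 151, 178 and 140.3 FPKM in diabetic saline ulcers and 182, 189.5 and 179 FPKM in non-diabetic ulcers, at -0.24 (SE 0.17), adjusted p = 0.333 for diabetic saline minus non-diabetic. Its groups overlapped for PRP and diabetic saline, and diabetic saline lay below non-diabetic. Mir3064 is the best measured of the called genes, at 182.8 to 290.6 read equivalents in diabetic saline ulcers and 82.8 to 152.4 in non-diabetic ulcers. Its call was not stable: of 9 limma fits with 1 library left out it was kept in 1, without non-diabetic replicate 2. The adjusted p was 0.0345 to 0.157 over those fits. Mir6324 lies in Brwd1, a bromodomain protein gene. Mir6324 had 0.734, 0.939 and 0.29 FPKM in PRP ulcers, 0.795, 1.1 and 1.55 FPKM in diabetic saline ulcers and 0.141, 0.261 and 0.288 FPKM in non-diabetic ulcers. All diabetic saline libraries were above all non-diabetic ones, at 0.79 (SE 0.20), adjusted p = 0.0456. These values are only 9.5 to 19.2 read equivalents in diabetic saline ulcers and 1.6 to 3.4 in non-diabetic ulcers. The call of Mir6324 was kept in 2 of 9 fits with 1 library left out. Brwd1 had 15.5, 16.8 and 14.2 FPKM in PRP ulcers, 17.3, 23.1 and 15.6 FPKM in diabetic saline ulcers and 13.9, 14.0 and 12.1 FPKM in non-diabetic ulcers, with the same order of these groups and 0.44 (SE 0.17), adjusted p = 0.104.

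Mir511 lies within Mrc1, the mannose receptor of macrophages. It had 0.703, 2.53 and 1.21 FPKM in PRP ulcers, 1.04, 1.44 and 0.199 FPKM in diabetic saline ulcers and 4.07, 2.47 and 3.27 FPKM in non-diabetic ulcers. Every non-diabetic library was above every diabetic saline one, at -1.22 (SE 0.34), adjusted p = 0.0559, which just misses the threshold. Mrc1 had 34.6, 37.2 and 36.3 FPKM in PRP ulcers, 56.2, 15.3 and 21.0 FPKM in diabetic saline ulcers and 87.8, 75.3 and 84.2 FPKM in non-diabetic ulcers and was called lower in diabetic saline ulcers, at -1.60 (SE 0.39), adjusted p = 0.0447. PRP and diabetic saline libraries overlapped in both genes. Macrophage markers, of which Mrc1 is one, summed to 219 to 341 FPKM in PRP ulcers, 90.6 to 345 FPKM in diabetic saline ulcers and 513 to 583 FPKM in non-diabetic ulcers, and their part in the level of Mir511 was not tested.

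Mir214 lies opposite Dnm3, where mouse has the mesenchymal transcript Dnm3os, from which its Mir214 and Mir199a2 are cut. It had 5.08, 12.4 and 9.84 FPKM in PRP ulcers, 3.37, 1.8 and 4.62 FPKM in diabetic saline ulcers and 11.6, 6.63 and 10.4 FPKM in non-diabetic ulcers. Every diabetic saline library was below all others, at -1.33 (SE 0.36), adjusted p = 0.0544 for diabetic saline minus non-diabetic and 1.23 (SE 0.36), adjusted p = 0.714 for PRP minus diabetic saline. Dnm3 had 6.89, 7.11 and 8.26 FPKM in PRP ulcers, 3.92, 4.15 and 3.62 FPKM in diabetic saline ulcers and 9.9, 10.9 and 8.0 FPKM in non-diabetic ulcers and was called lower in diabetic saline than in non-diabetic ulcers, at -1.11 (SE 0.15), adjusted p = 0.0313, with 0.78 (SE 0.15), adjusted p = 0.714 for PRP minus diabetic saline. The fibroblast markers, whose ranges stand above, were lowest in diabetic saline replicate 2, as was Mir214. In diabetic saline replicate 3 they summed to 16200 FPKM, above PRP replicate 1 at 10050 FPKM, while Mir214 was lower in the former, at 4.62 against 5.08 FPKM. The part of fibroblasts in the level of Mir214 was not tested. Mir199a2, which like Mir214 lies within the span of Dnm3, did not pass the threshold and was at 0.039 to 0.121 FPKM. Reads of Dnm3 and of a transcript opposite to it cannot be told apart here without the strand setting.

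**Figure D5:**
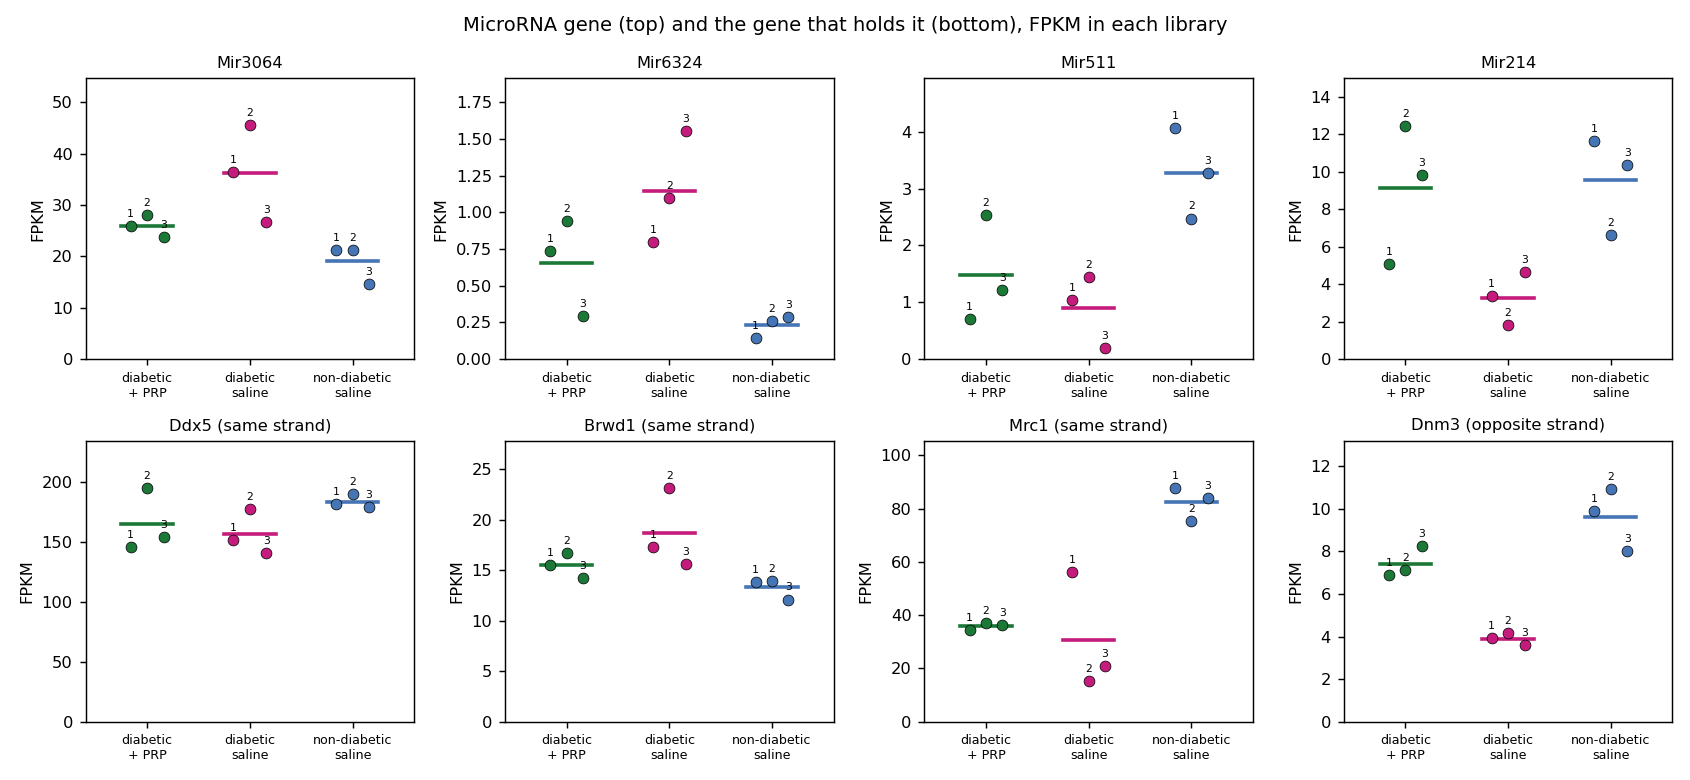
FPKM in each library of Mir3064, Mir6324, Mir511 and Mir214 (top) and of the gene that holds each (bottom), with replicate numbers and group means as bars. Mir3064 is highest in diabetic saline ulcers while Ddx5 is not, Mir6324 and Brwd1 are both highest there, Mir511 and Mrc1 are highest in non-diabetic ulcers, and Mir214 and Dnm3 are lowest in diabetic saline ulcers.

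The 5 called hosts on the same strand were Mrc1, Cep170, Clcn5, RGD1304694 and an unnamed gene around Mir339, and none of their microRNA genes was called. Cep170, a centrosome protein gene, fell in diabetic saline ulcers by 0.99 on the log2 scale (SE 0.21, adjusted p = 0.0377) against non-diabetic ulcers. Mir350-2 within it had 0.0939, 1.02 and 0.997 FPKM in PRP ulcers, 1.56, 1.02 and 1.04 FPKM in diabetic saline ulcers and 1.2, 1.45 and 1.26 FPKM in non-diabetic ulcers, with overlap between the 2 saline groups and all PRP libraries below all non-diabetic ones, at -0.49 (SE 0.24), adjusted p = 0.295. Mir339 had 1.77, 1.97 and 2.04 FPKM in PRP ulcers, 1.42, 0.982 and 0.197 FPKM in diabetic saline ulcers and 0.692, 2.2 and 1.22 FPKM in non-diabetic ulcers, with PRP above diabetic saline in all libraries, at 0.71 (SE 0.30), adjusted p = 0.714.

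Among microRNA genes with known skin roles, 28 of 73 on a list of 105 names passed the threshold. Mir205, which marks basal keratinocytes and with the miR-200 family holds the epithelial state, had 1.56, 3.14 and 1.02 FPKM in PRP ulcers, 1.65, 1.81 and 2.77 FPKM in diabetic saline ulcers and 0.72, 0.956 and 0.0879 FPKM in non-diabetic ulcers. Both diabetic groups were above the non-diabetic one, at 0.98 (SE 0.32), adjusted p = 0.0752 for diabetic saline and 0.85 (SE 0.32), adjusted p = 0.199 for PRP, each minus non-diabetic. The keratinocyte markers given above were likewise higher in both diabetic groups than in the non-diabetic one. They were lowest in non-diabetic replicate 3, at 82.7 FPKM, where Mir205 was at 0.0879 FPKM. Their part in the level of Mir205 was not tested. Mir200b, in Ttll10, had 0, 1.54 and 0.238 FPKM in PRP ulcers, 0, 0.995 and 0.208 FPKM in diabetic saline ulcers and 0, 0.618 and 0 FPKM in non-diabetic ulcers, with overlap of all groups.

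Of the fibroblast genes on the list, Mir29b2, whose mature form represses collagens, ranged from 0 to 1.24 FPKM with overlap of all groups. Mir22 had 3.95, 2.62 and 3.14 FPKM in PRP ulcers, 2.15, 1.2 and 1.17 FPKM in diabetic saline ulcers and 1.87, 2.41 and 3.75 FPKM in non-diabetic ulcers, with PRP above diabetic saline in all libraries, at 0.77 (SE 0.24), adjusted p = 0.714. Mir6326, which lies with Mir22 in 348 bases, had 1.8, 1.31 and 1.38 FPKM in PRP ulcers, 2.38, 1.01 and 3.29 FPKM in diabetic saline ulcers and 4.35, 2.58 and 4.33 FPKM in non-diabetic ulcers, with PRP below non-diabetic in all libraries, at -0.91 (SE 0.29), adjusted p = 0.169. Mir196a of the Hox clusters ranged from 0.14 to 0.97 FPKM.

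Among genes known from endothelium, Mir126a lies opposite Egfl7 in this table and had 0.469, 0 and 1.14 FPKM in PRP ulcers, 0.451, 0.805 and 0.204 FPKM in diabetic saline ulcers and 0.707, 0.133 and 0 FPKM in non-diabetic ulcers, with no separation of groups. Egfl7 had 15.1, 14.4 and 20.5 FPKM in PRP ulcers, 21.5, 7.26 and 8.81 FPKM in diabetic saline ulcers and 35.7, 20.1 and 61.0 FPKM in non-diabetic ulcers. The chromosome 15 genes of the miR-17-92 cluster, known for driving proliferation, were faint. Mir92a1 had 0.609, 1.48 and 2.29 FPKM in PRP ulcers, 0.324, 2.33 and 0.568 FPKM in diabetic saline ulcers and 0.145, 0.405 and 0.158 FPKM in non-diabetic ulcers, with PRP above non-diabetic in all libraries, at 0.94 (SE 0.37), adjusted p = 0.214. Mir18a and Mir19a, which lie in the same 649 bases, ranged from 0 to 1.19 and from 0 to 2.74 FPKM with overlap of all groups, and both were listed at 0 in PRP replicate 3. Mir23b and Mir27b lie in Aopep on chromosome 17, and Mir23b ranged from 1.53 to 3.95 FPKM. Mir27b had 5.05, 10.1 and 8.51 FPKM in PRP ulcers, 8.35, 7.14 and 4.78 FPKM in diabetic saline ulcers and 7.49, 5.82 and 5.43 FPKM in non-diabetic ulcers, so it did not show the split of Mir27a, whose seed it shares. Mir221 ranged from 0 to 1.58 FPKM, and the muscle gene Mir133b from 0 to 2.07 FPKM, with overlap of all groups.

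The let-7 genes, which hold back growth genes such as Hmga2 and are themselves held back by Lin28, gave 6 of the 99. Mirlet7i had 2.77, 3.89 and 2.5 FPKM in PRP ulcers, 5.47, 3.37 and 1.28 FPKM in diabetic saline ulcers and 6.49, 2.88 and 6.49 FPKM in non-diabetic ulcers, and Mirlet7c1, next to Mir99a on chromosome 11, had 3.95, 8.96 and 5.79 FPKM in PRP ulcers, 4.43, 3.31 and 6.46 FPKM in diabetic saline ulcers and 7.7, 4.74 and 6.46 FPKM in non-diabetic ulcers. Groups overlapped in both. Mirlet7b had 1.2, 2.32 and 3.32 FPKM in PRP ulcers, 0.468, 1.09 and 0.861 FPKM in diabetic saline ulcers and 0.711, 3.19 and 2.48 FPKM in non-diabetic ulcers, with all PRP libraries above all diabetic saline ones, at 0.82 (SE 0.37), adjusted p = 0.714. Mirlet7a1 and Mirlet7d, 2 neighbours on chromosome 17, and Mir98 on chromosome X ranged from 0.311 to 1.87, from 1.22 to 4.56 and from 0.0202 to 1.97 FPKM over the 9 libraries. Mir99a, a repressor of mTOR, had 2.99, 11.0 and 7.54 FPKM in PRP ulcers, 6.33, 5.76 and 5.06 FPKM in diabetic saline ulcers and 10.5, 5.97 and 2.38 FPKM in non-diabetic ulcers. None of these 7 was called, and Lin28a and Lin28b reached at most 0.0103 and 0.0335 FPKM in a library.

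Other genes whose groups were separated in a comparison lie apart from these lists. Mir6318, opposite Elmo3, had 0.479, 0.526 and 0.276 FPKM in PRP ulcers, 2.37, 3.33 and 1.65 FPKM in diabetic saline ulcers and 0.777, 1.57 and 2.17 FPKM in non-diabetic ulcers. All PRP libraries were below all others, at -1.25 (SE 0.25), adjusted p = 0.714 for PRP minus diabetic saline and -0.78 (SE 0.25), adjusted p = 0.174 for PRP minus non-diabetic. Elmo3 ranged from 1.31 to 6.42 FPKM with overlap of PRP and diabetic saline. Mir762, opposite Bcl7c, had 5.93, 6.28 and 7.0 FPKM in PRP ulcers, 3.54, 3.57 and 2.18 FPKM in diabetic saline ulcers and 2.32, 4.18 and 5.57 FPKM in non-diabetic ulcers, with PRP above both other groups, at 0.61 (SE 0.26), adjusted p = 0.237 for PRP minus non-diabetic. Bcl7c ranged from 14.3 to 36.1 FPKM, with PRP overlapping both other groups. Mir1949, in an unnamed noncoding gene on chromosome 18, had 3.15, 2.23 and 2.4 FPKM in PRP ulcers, 1.09, 2.11 and 0.949 FPKM in diabetic saline ulcers and 0.884, 0.964 and 0.92 FPKM in non-diabetic ulcers, with PRP again above both, at 0.89 (SE 0.20), adjusted p = 0.154 for PRP minus non-diabetic. Mir568 had 11.0, 12.2 and 10.7 FPKM in PRP ulcers, 19.8, 14.2 and 15.1 FPKM in diabetic saline ulcers and 11.5, 13.8 and 7.28 FPKM in non-diabetic ulcers, with diabetic saline above both, at 0.58 (SE 0.23), adjusted p = 0.116 for diabetic saline minus non-diabetic. Scarna3 had 2.77, 1.03 and 0.314 FPKM in PRP ulcers, 1.12, 0.898 and 1.03 FPKM in diabetic saline ulcers and 0.432, 0.314 and 0.336 FPKM in non-diabetic ulcers, at 0.57 (SE 0.32), adjusted p = 0.237 for diabetic saline minus non-diabetic. Mir3571 and Mir3582, a cluster in Mib1 on chromosome 18 with no such separation, ranged from 1.29 to 2.69 and from 0.359 to 1.29 FPKM.

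No gene of the microRNA machinery was called. Of 33 on the list, 31 were tested and 0 were called by limma in any of the 3 comparisons, against 8.54% of all features for diabetic saline against non-diabetic, 0% for PRP against diabetic saline and 0.00631% for PRP against non-diabetic. At an unadjusted p under 0.05 there were 4 for diabetic saline against non-diabetic (12.9%, against 34.4% of all features), 0 for PRP against diabetic saline and 3 for PRP against non-diabetic (9.68%, against 20.4%). The median log2 difference of the list in these comparisons was -0.002, -0.132 and -0.126, against 0.049, -0.062 and -0.036 for all features. The 4, all lower in diabetic saline than in non-diabetic ulcers, were Mov10, a helicase of Argonaute complexes, at -1.41 (SE 0.42), adjusted p = 0.0646, Zc3h12a, an endonuclease that cuts hairpins and immune mRNAs, at -1.43 (SE 0.50), adjusted p = 0.0885, Adar, an RNA editing enzyme, at -0.49 (SE 0.16), adjusted p = 0.0731, and Snd1, an Argonaute partner, at -0.45 (SE 0.15), adjusted p = 0.0786. Mov10 had 1.49, 2.76 and 1.65 FPKM in PRP ulcers, 1.26, 1.58 and 1.58 FPKM in diabetic saline ulcers and 4.66, 2.68 and 12.6 FPKM in non-diabetic ulcers. Zc3h12a had 4.66, 14.8 and 11.7 FPKM in PRP ulcers, 5.24, 5.24 and 3.27 FPKM in diabetic saline ulcers and 15.3, 6.67 and 25.2 FPKM in non-diabetic ulcers. In both genes non-diabetic replicates 1 and 3 lay far above non-diabetic replicate 2. For the core enzymes, the difference of diabetic saline minus non-diabetic was 0.07 (SE 0.15) for Drosha, -0.13 (SE 0.15) for Dgcr8, 0.17 (SE 0.23) for Xpo5, 0.22 (SE 0.16) for Dicer1 and 0.06 (SE 0.24) for Ago2, the slicing Argonaute. The highest levels on the list were those of Ddx5, the RNA-binding proteins Hnrnpa1 and Srsf3, the export GTPase Ran, Snd1 and the uridylating enzyme Tut7, and Hnrnpa1 averaged 109.5, 136 and 113 FPKM in PRP, diabetic saline and non-diabetic ulcers.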

How the data were processed

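Bulk RNA-seq of ulcer skin was read from 9 libraries, 3 per group, labelled as biological replicates. Nothing says whether each came from its own animal, so p-values measure the spread between these samples. Per the labels' protocols, RNA was extracted with RNeasy Plus and libraries were made with NEBNext Ultra II Directional. The submitters' processing notes name cutadapt, FastQC, HISAT2 and StringTie and the build GRCm39, while all gene identifiers in the deposited table are rat ones. The sources used here name neither the rat build nor the strand setting of the counting. FPKM values per gene were made by the authors, per the file headers. They were not whole multiples of a read (8.6% of values above 0 within 0.05 of one), so no count test was run. The deposited counts, which cover 249 lncRNA genes, were used only for depth. The group mean signal, log2 fold changes and p-values that the authors deposited are not used here.

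Features with at least 0.5 FPKM in at least 3 libraries were fitted on log2(FPKM + 1) with limma 3.58.1 in R 4.3.3 (trend, group as the only term, all 9 libraries sharing one spread), with Benjamini-Hochberg adjustment over 15847 features and two-sided p-values. Differences on this scale understate the change of faint genes. The fit was tested on simulated data. Clusters are microRNA genes of one strand less than 10 kb apart. A host holds the whole hairpin. Genes named are the 10 highest, those called, the 5 largest differences in each direction without overlap and at 1 FPKM or more in each comparison, clustered genes, those on a list of skin microRNAs, and their hosts. The members and lists were chosen with earlier results of these data known. Replicate numbers were not treated as pairs, because the labels state no pairing. Alternatives were another pseudocount, other filters, size factors, sample weights, a replicate block, only the compared libraries, and libraries left out.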

Additional observations from a re-analysis of the deposited data

How the results depend on the processing

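Between diabetic saline and non-diabetic ulcers, the count of all features called (1354 as reported) was 0 with no filter on low values, 535 with size factors, 0 with only the 6 libraries compared, 5497 with sample weights, 0 with non-diabetic replicate 2 as the only non-diabetic library, and 0 to 3429 with 1 library left out. MicroRNA genes called higher (2 as reported) numbered 1 with a pseudocount of 0.1, 0 with no filter, 0 with size factors, 0 with the 6 libraries, 1 with the replicate block, 0 with that lone library and 0 to 4 with 1 library left out. Those called lower (5 as reported) numbered 0 with no filter, 2 with size factors, 0 with the 6 libraries, 2 with the replicate block, 17 with sample weights, 0 with the lone library and 0 to 14 with 1 library left out. Their median difference was -0.173 with sample weights, 0.076 with the lone library and -0.132 to 0.025 with 1 library left out. The fit with the lone library assumes that it varies like the other groups. The 7 called genes kept their direction in each of 9 fits with 1 library left out, and stayed called in 1 to 3 of them.

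Between PRP and diabetic saline ulcers, 1 feature was called with no filter and 0 to 0 with 1 library left out, and the median difference of the microRNA genes was 0.20 with a pseudocount of 0.1. Between PRP and non-diabetic ulcers, the count of features (1 as reported) was 2 with no filter, 0 with the 6 libraries, 0 with the replicate block, 6518 with sample weights (15 microRNA genes higher and 16 lower), 0 with the lone library and 0 to 689 with 1 left out (0 to 4 microRNA genes lower). The median there was 0.21 with the lone library and -0.092 to 0.074 with 1 left out. Mir21 reversed, to 0.076 with an adjusted p of 0.98, for diabetic saline minus non-diabetic with the lone library. A threshold of 1 FPKM left 59 microRNA genes of 99. Same-numbered samples did not deviate together (r from -0.404 to 0.347 over 9 pairs, 3 above 0.1), and 5 of 18 correlations were best with the own number. With so few libraries a group, these correlations cannot exclude pairing. The cause of these shifts was not tested. Non-diabetic replicate 1 had a weight of 7.36 and PRP replicate 2 of 2.95. Depth limits faint genes: over a gene of median length, 0.5 FPKM stands for an estimated 4 or 5 read equivalents.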
